A study of Mus musculus with 9 samples.

Results

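The FGF/ERK feedback regulators examined here are 10 genes that act on the pathway from fibroblast growth factor (FGF) receptors to the kinase ERK, or are switched on by it. They were taken by name, as known regulators of this pathway, with earlier results of these data known. They comprise the sprouty genes Spry1, Spry2 and Spry4, the sprouty-related genes Spred1 and Spred2, the MAP kinase phosphatase genes Dusp4, Dusp5 and Dusp6, and the ETS transcription factor genes Etv4 and Etv5. Each of the 10 symbols had 1 row in each of the 9 deposited tables, which held 24411 genes, and all 10 were among the 14300 genes that passed the filter on low counts.

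RNA was measured in mouse EB5 embryonic stem cells of 3 genotypes, with 3 libraries of each: Zfp352/Zfp353-DKO cells, in which both zinc-finger genes had been deleted with CRISPR-Cas9, Zfp352-KO cells, in which only Zfp352 had been deleted, and Parental cells. EB5 derives from the male line E14tg2a of the 129Ola background. Cells of every genotype therefore share its genotype at the pluripotency gene Oct3/4 (Pou5f1), Oct3/4IRES-BSD-pA/+, and all were grown on gelatin in medium with foetal calf serum and leukemia inhibitory factor, per the labels. How many clones each edited genotype stands for, and whether the libraries came from separate cultures, is not given in the sources used here, so p-values speak only of the variation among the sequenced libraries, which may be technical.

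Mouse embryonic stem cells secrete FGF4, which signals through FGF receptors, RAS, RAF and MEK to ERK and helps the cells leave the naive pluripotent state. Active ERK induces its own brakes: sprouty and SPRED proteins limit signalling between the receptor and RAF, and the dual-specificity phosphatases DUSP4, DUSP5 and DUSP6 remove phosphate from ERK. ETV4 and ETV5 are ETS factors of the PEA3 group whose genes are induced by FGF signalling, and RNA of these genes and of Spry4 and Dusp6 is widely used as a readout of the pathway.

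Zfp352 itself had 1, 1 and 3 expected counts in the Zfp352/Zfp353-DKO libraries, 3, 8 and 10 in those of Zfp352-KO, against 47, 52 and 41 in the Parental libraries. Its RNA was lower in both edited genotypes, with no overlap with the Parental libraries, by log2 fold changes of -4.64 ± 0.42 (SE) in Zfp352/Zfp353-DKO cells and -2.65 ± 0.32 in Zfp352-KO cells. Libraries held between 16599004 and 22044820 expected counts. Markers of embryonic stem cells summed to 6648 to 6743 TPM, a level scaled for transcript length and library depth, in Zfp352/Zfp353-DKO, 6540 to 6703 in Zfp352-KO and 6615 to 6748 in Parental libraries, with Pou5f1 itself between 1095 and 1222 TPM and Dppa5a between 3087 and 3343 TPM. Sox2, Esrrb and Tfcp2l1 lay higher in every edited than in every Parental library. Of all tested genes, 15.8% lay higher without overlap in TPM in Zfp352/Zfp353-DKO and 16.2% in Zfp352-KO cells. The other markers overlapped with Parental libraries in Zfp352/Zfp353-DKO, in Zfp352-KO or in both. By the edgeR test described below, 2 of 8 were called higher in Zfp352/Zfp353-DKO and 1 in Zfp352-KO cells, and 0 lower. Of all tested genes, 3.65% and 3.43% were called higher. The sum over 14 markers of fibroblast-type cells was 108 to 118 TPM in Zfp352/Zfp353-DKO, 129 to 147 in Zfp352-KO and 209 to 211 in Parental libraries, with Lum at 1 count over all libraries. S100a6 had the highest level among them, with 62.8 to 67.8, 68.5 to 76.2 and 99.8 to 114 TPM in this order of genotypes. Tagln followed, with 21.2 to 23.9, 28.7 to 34.4 and 49.5 to 54.9 TPM, while Col6a1 overlapped with Parental libraries in both edited genotypes. The sum over 8 trophectoderm markers was 217 to 223 TPM in Zfp352/Zfp353-DKO, 243 to 248 in Zfp352-KO and 318 to 358 in Parental libraries. In the same order, Krt8 had 68.8 to 77.0, 79.3 to 88.8 and 130 to 150 TPM. Krt18 had 68.1 to 72.7, 81.4 to 85.7 and 108 to 131 TPM, and Cdx2, at most 2.24 TPM, was also lower in edited libraries. Tfap2c (59.0 to 69.2, 60.6 to 66.4 and 61.1 to 64.0 TPM), Eomes, Gata3, Krt7 and Elf5 overlapped with Parental libraries. The sum over 6 markers of primitive streak and mesoderm was 7.51 to 8.61 TPM in Zfp352/Zfp353-DKO, 7.32 to 8.19 in Zfp352-KO and 13.5 to 15.7 in Parental libraries. Over 5 neural progenitor markers it was 16.7 to 17.7 TPM in Zfp352/Zfp353-DKO, 19.9 to 21.0 in Zfp352-KO and 21.8 to 22.6 in Parental libraries, and over 8 primitive endoderm markers 21.1 to 27.4 TPM in Zfp352/Zfp353-DKO, 19.5 to 24.7 in Zfp352-KO and 17.1 to 21.0 in Parental libraries. The part of these other cell types in the results below was not tested, and in bulk RNA fewer cells of a type cannot be told apart from less RNA per cell.

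In these cells the 10 regulators were all transcribed, at levels per transcript length that spanned more than an order of magnitude, and their order differed little between genotypes. Etv5 had the highest level, 205 ± 11.3 TPM in Zfp352/Zfp353-DKO, 207 ± 9.79 TPM in Zfp352-KO and 227 ± 7.99 TPM in Parental cells (mean ± SD, n = 3 each). Spry2, with 97.1 ± 3.61 TPM in Zfp352/Zfp353-DKO, 97.2 ± 2.69 in Zfp352-KO and 91.5 ± 1.01 in Parental cells, and Spry4 followed. Spred2 averaged 65.5 ± 5.86 TPM in Zfp352/Zfp353-DKO, 63.9 ± 7.97 in Zfp352-KO and 57.8 ± 4.59 in Parental cells. Dusp4, Etv4 and Dusp6 lay between 31.0 and 52.7 TPM in every library. Spred1, Spry1 and Dusp5 had the lowest levels, and Dusp5 was last in every genotype, with 11.4 ± 0.560 TPM in Zfp352/Zfp353-DKO, 10.9 ± 0.184 in Zfp352-KO and 12.6 ± 0.572 in Parental cells.

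In Zfp352/Zfp353-DKO and in Zfp352-KO cells no neighbours in this order overlapped between libraries. In Parental cells 2 pairs of neighbours did: Dusp4 overlapped Etv4, and Spry1 overlapped Spred1. Spred1 stood above Spry1 in every edited library, whereas the Parental mean of Spry1 was the higher of the 2. Expected counts behind these levels ran from 102 to 166 for Dusp5, the least deeply read member, and from 7050 to 9951 for Etv5, so small differences are measured less precisely for Dusp5 than for Etv5.

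**Figure D1:**
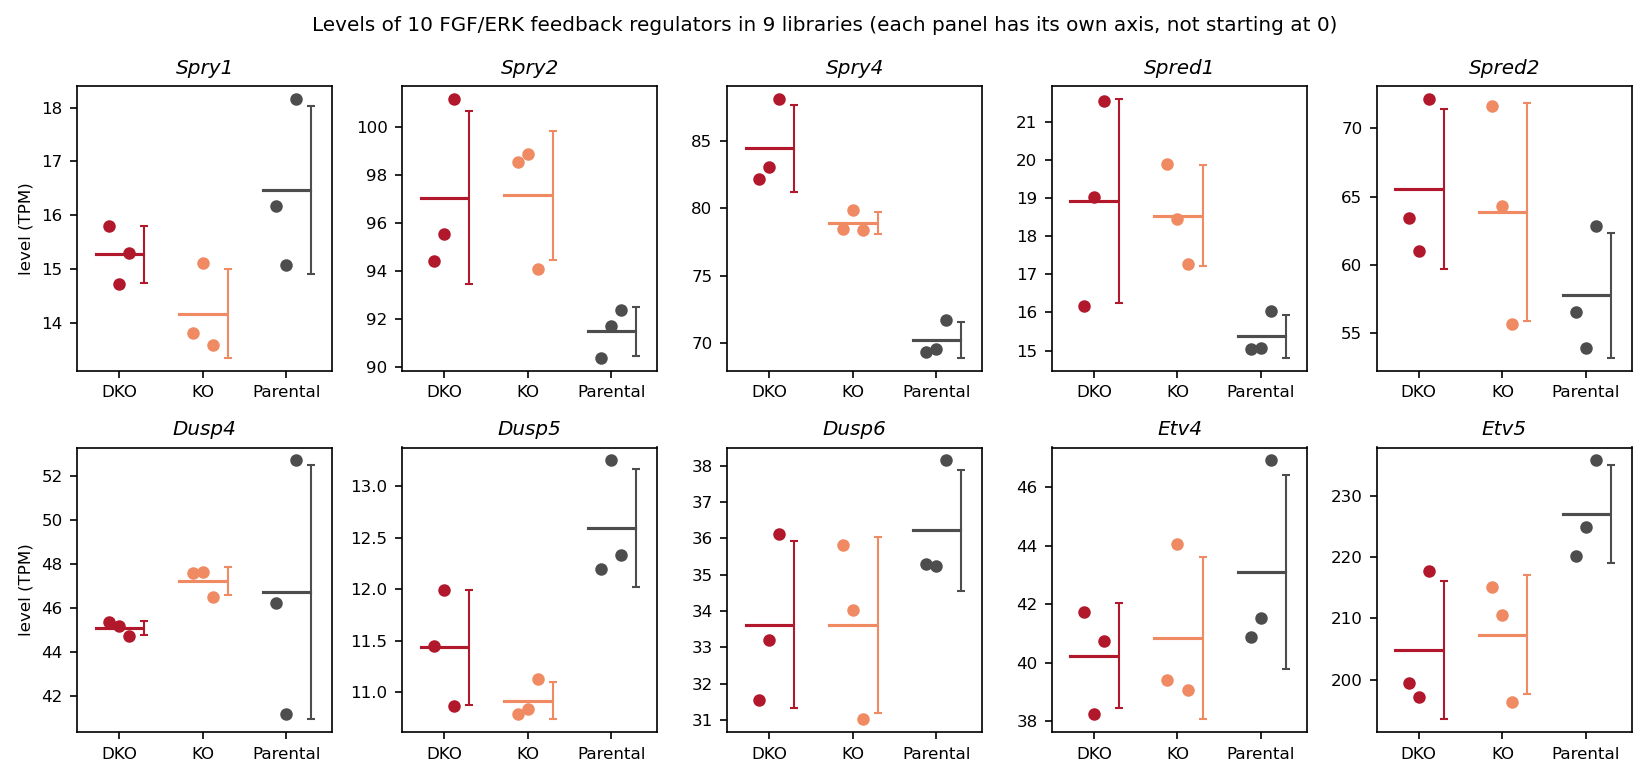
TPM of each of the 10 feedback regulators in the 3 Zfp352/Zfp353-DKO, 3 Zfp352-KO and 3 Parental libraries. Points are libraries, lines are means and bars are SD (n = 3). Spry2, Spry4 and Spred1 lie higher, and Etv5 and Dusp5 lower, in all 6 edited libraries than in the 3 Parental libraries. Of all tested genes, 26.7% did not overlap in TPM between Zfp352/Zfp353-DKO and Parental and 26.2% between Zfp352-KO and Parental libraries.

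The members are spread over 9 chromosomes and share no locus. RefSeq promoter entries (GRCm38.p6) were found for 7 of the 10 members, and the 250 bases before the start are shown for those among them that changed in a comparison, because ETS factors such as ETV4 and ETV5 bind around a GGAA core, and for Dusp5, whose promoter differs from the other 6 in its motifs. Sequences run 5′ to 3′ on the strand of the gene, and capitals mark GGAA cores, read on both strands, and CArG boxes, the binding motif of serum response factor.
Spry1, chr3:37639697-37639946, plus strand: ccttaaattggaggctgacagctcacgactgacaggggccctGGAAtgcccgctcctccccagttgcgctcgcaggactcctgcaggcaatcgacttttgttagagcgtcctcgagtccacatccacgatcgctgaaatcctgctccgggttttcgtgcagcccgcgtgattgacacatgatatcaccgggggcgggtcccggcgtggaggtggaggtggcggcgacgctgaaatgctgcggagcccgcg
Spred1, chr2:117120821-117121070, plus strand: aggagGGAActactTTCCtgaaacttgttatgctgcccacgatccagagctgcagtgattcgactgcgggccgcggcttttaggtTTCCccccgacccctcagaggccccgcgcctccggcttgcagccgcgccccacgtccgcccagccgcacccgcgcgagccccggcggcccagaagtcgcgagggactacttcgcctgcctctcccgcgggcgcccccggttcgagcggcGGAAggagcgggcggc
Etv5, chr16:22439571-22439820, minus strand: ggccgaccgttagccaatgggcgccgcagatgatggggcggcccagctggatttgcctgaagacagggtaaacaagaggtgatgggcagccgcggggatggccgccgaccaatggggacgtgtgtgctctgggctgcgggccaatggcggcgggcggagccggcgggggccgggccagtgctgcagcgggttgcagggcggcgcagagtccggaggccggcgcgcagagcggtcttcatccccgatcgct
Dusp5, chr19:53528895-53529144, plus strand: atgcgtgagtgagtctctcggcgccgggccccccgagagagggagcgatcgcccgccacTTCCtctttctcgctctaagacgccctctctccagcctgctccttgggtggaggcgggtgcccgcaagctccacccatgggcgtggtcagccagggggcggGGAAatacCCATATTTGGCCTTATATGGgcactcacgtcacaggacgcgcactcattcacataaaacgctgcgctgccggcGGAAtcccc
Spred1 had 4 GGAA cores in this window, Spry1 had 1, and the window before the more upstream of the 2 Etv5 starts had 0, while that before the other Etv5 start, not shown, had 4. Members that passed in no comparison had similar or larger numbers: Spred2 had 7, Dusp6 had 6, and Spry2 and Dusp5 had 3 each. At least 1 match was found in 93.4% of the 32851 promoters in the same set. None of the 7 members' promoters held CCGGAA, a longer ETS motif that contains GGAA and was present in 12% of promoters. Dusp5 had 2 CArG boxes side by side, beginning 82 and 72 bases before its start, and at least 1 such box was found in 1.47% of promoters. These matches describe letters in a window and are no evidence of binding.

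The first comparison asked how the regulators stood in cells without both zinc-finger genes. In Zfp352/Zfp353-DKO cells Spry4 and Spred1 rose and Etv5 fell relative to Parental cells, each by at most 19.2%, and the other 7 members did not pass the test. Calls rest on edgeR's quasi-likelihood test over all 14300 genes, at a threshold of 0.05 on the p-value after Benjamini-Hochberg adjustment. The 2 higher and 1 lower calls among 10 members stand beside 3.65% of all tested genes called higher, 4.82% called lower and 8.47% called in either direction. The median log2 fold change of the members was -0.11, and that of all tested genes was 0.00 to 2 decimals.

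Spry4, an inhibitor of receptor-to-ERK signalling, had 82.1, 83.1 and 88.1 TPM in the Zfp352/Zfp353-DKO libraries, 78.5, 79.9 and 78.4 TPM in those of Zfp352-KO and 69.4, 69.5 and 71.8 TPM in the Parental libraries. The 3 genotypes did not overlap, with Zfp352/Zfp353-DKO highest and Parental lowest. In Zfp352/Zfp353-DKO cells Spry4 was 16.9% higher than in Parental cells, a log2 fold change of 0.23 ± 0.04 (SE, 95% interval 0.14 to 0.31, edgeR adjusted p = 0.0025). The call was kept when any 1 of the 9 libraries was left out and in the 12 other settings tried, with log2 fold changes between 0.22 and 0.27. In Zfp352-KO cells its log2 fold change was 0.12 ± 0.04 (95% interval 0.03 to 0.21, edgeR adjusted p = 0.0863), which did not pass.

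Spred1, which recruits the RAS inactivator neurofibromin to the membrane, had 16.2, 19.0 and 21.5 TPM in the Zfp352/Zfp353-DKO libraries, 19.9, 18.4 and 17.3 TPM in those of Zfp352-KO and 15.0, 15.1 and 16.0 TPM in the Parental libraries. All 6 edited libraries lay above the 3 Parental ones, but library 1 of Zfp352/Zfp353-DKO lay only just above Parental library 3. Its log2 fold change in Zfp352/Zfp353-DKO cells was 0.25 ± 0.07 (95% interval 0.10 to 0.40, edgeR adjusted p = 0.0338). In Zfp352-KO cells it was 0.23 ± 0.07 (95% interval 0.08 to 0.38, edgeR adjusted p = 0.0579), which did not pass, although DESeq2 called it (adjusted p = 0.0433). The call in Zfp352/Zfp353-DKO cells was lost without Zfp352/Zfp353-DKO library 2 or 3 (edgeR adjusted p = 0.101 and 0.162) and without Parental library 1, 2 or 3 (0.155, 0.0685 and 0.0714), and in a limma-trend fit on log2(TPM + 1) (adjusted p = 0.113). Spred1 has the longest transcript of the members, 6219 bases on average, and across genes the rank correlation between a library's deviation from the mean of all libraries and transcript length was -0.127, -0.0218 and 0.362 in the Zfp352/Zfp353-DKO libraries, 0.391, 0.189 and -0.0655 in those of Zfp352-KO, and -0.307, -0.402 and -0.0813 in the Parental libraries. With the trend on length and GC content removed from each library, the log2 fold change of Spred1 was 0.13 in Zfp352/Zfp353-DKO cells (edgeR adjusted p = 0.0926) and 0.08 in Zfp352-KO cells (0.396).

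Etv5, the most abundant of the 10 and a transcriptional target of FGF signalling, had 199, 197 and 218 TPM in the Zfp352/Zfp353-DKO libraries, 215, 211 and 196 TPM in those of Zfp352-KO and 220, 225 and 236 TPM in the Parental libraries. Every edited library lay below every Parental one, while the 2 edited genotypes overlapped. Etv5 fell by 0.19 on the log2 scale in Zfp352/Zfp353-DKO cells, with a SE of 0.04 (95% interval -0.28 to -0.10, edgeR adjusted p = 0.011). The call was lost without Zfp352/Zfp353-DKO library 2 (0.0833) or Parental library 2 (0.0568), and in a limma-trend fit on log2(TPM + 1) (adjusted p = 0.104). With the length and GC trend removed it was kept (edgeR adjusted p = 0.00138).

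The second comparison asked the same of cells without Zfp352 alone. In Zfp352-KO cells Etv5 and Spry1 fell relative to Parental cells and no member rose. The 0 higher and 2 lower calls among 10 members stand beside 3.43% of all tested genes called higher, 3.64% called lower and 7.06% called in either direction. At an unadjusted p under 0.05 in edgeR there were 2 higher and 4 lower members, beside 11.9% of all tested genes higher and 11.9% lower. The same threshold gave 3 higher and 3 lower members in Zfp352/Zfp353-DKO cells, beside 12.1% and 12.4%. DESeq2 called 1 member higher and 1 lower in Zfp352-KO cells, among 519 genes higher and 412 lower. The median log2 fold change of the members was -0.07, against -0.01 over all tested genes. These fold changes rest on the Parental libraries that also served the comparison with Zfp352/Zfp353-DKO cells, so the values of the 2 comparisons are not independent.

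Etv5 fell by 0.18 on the log2 scale in Zfp352-KO cells, with a SE of 0.04 (95% interval -0.27 to -0.09, edgeR adjusted p = 0.0221). Leaving out any 1 Zfp352-KO or Parental library ended the call, with edgeR adjusted p between 0.0524 and 0.0981, as did limma on log2(TPM + 1) (adjusted p = 0.149). Spry1, a sprouty gene best known for restraining receptor signalling in kidney development, had 15.8, 14.7 and 15.3 TPM in the Zfp352/Zfp353-DKO libraries, 13.8, 15.1 and 13.6 TPM in those of Zfp352-KO and 16.2, 15.1 and 18.2 TPM in the Parental libraries. Library 2 of Zfp352-KO reached the level of Parental library 2, so the 2 genotypes overlapped in TPM. In CPM, counts scaled to library depth, they did not, with 16.0 to 17.8 in Zfp352-KO and 19.1 to 21.6 in Parental libraries. GENCODE places the antisense gene Gm42922 over Spry1 (and another over Dusp5), whose reads cannot be told apart from those of Spry1 where counting ignored strand. Spry1 fell by 0.26 on the log2 scale in Zfp352-KO cells, with a SE of 0.08 (95% interval -0.43 to -0.10, edgeR adjusted p = 0.0452). The call did not hold in DESeq2 (adjusted p = 0.0809), in limma on log2(TPM + 1) (0.161), with the length and GC trend removed (-0.17, edgeR adjusted p = 0.169) or without Zfp352/Zfp353-DKO library 2 or any 1 Zfp352-KO or Parental library (edgeR adjusted p between 0.0691 and 0.179). In Zfp352/Zfp353-DKO cells the log2 fold change of Spry1 was -0.15 ± 0.08 (edgeR adjusted p = 0.241).

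**Figure D2:**
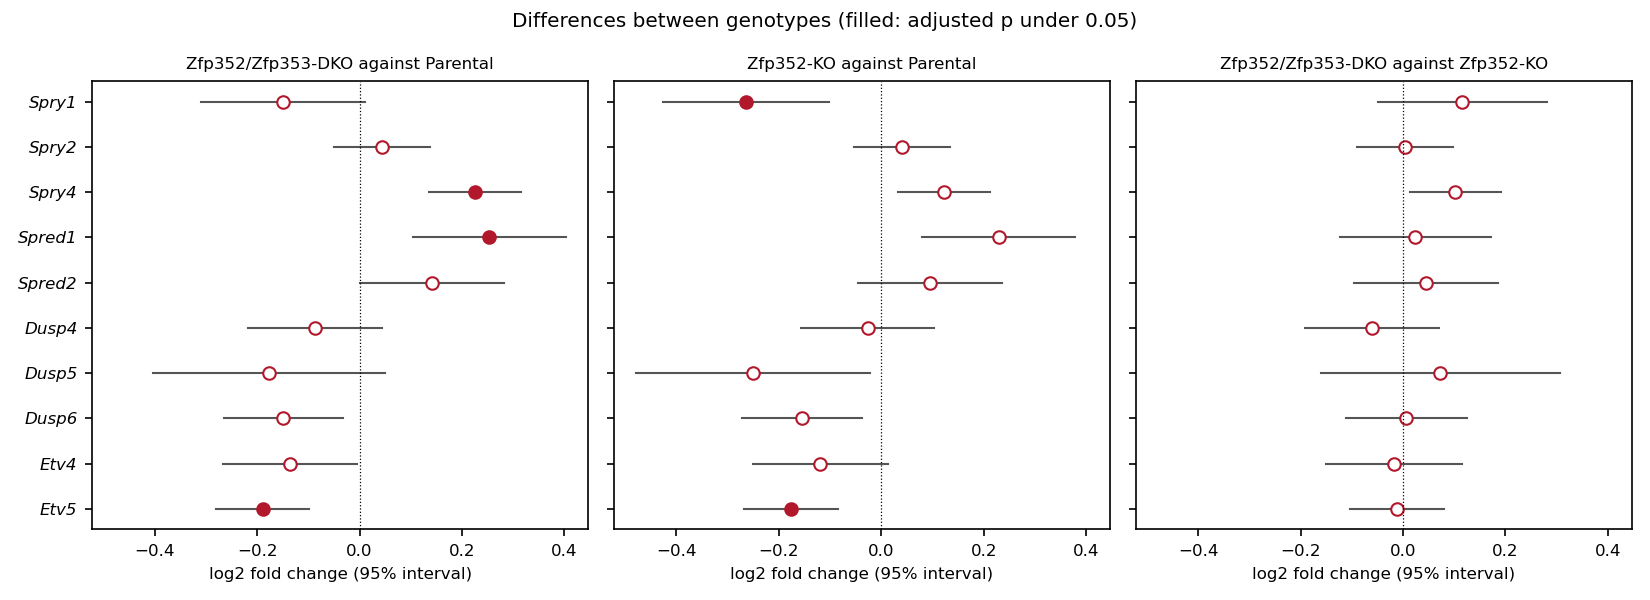
Log2 fold change of each regulator in Zfp352/Zfp353-DKO against Parental, Zfp352-KO against Parental and Zfp352/Zfp353-DKO against Zfp352-KO cells. Points are edgeR estimates, lines are 95% intervals and filled points passed an adjusted p of 0.05: Spry4, Spred1 and Etv5 in the first panel, Spry1 and Etv5 in the second and none in the third.

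The members that passed in neither comparison were Spry2, Spred2, Dusp4, Dusp5, Dusp6 and Etv4. Among the sprouty genes, Spry2 had 94.5, 95.6 and 101 TPM in the Zfp352/Zfp353-DKO libraries, 98.6, 98.9 and 94.1 TPM in those of Zfp352-KO and 90.4, 91.7 and 92.4 TPM in the Parental libraries. The edited libraries lay above the Parental ones in TPM but not in CPM, and the count-based log2 fold change was 0.04 in each comparison, with 95% intervals of -0.05 to 0.14 and -0.05 to 0.13. Between these genotypes the median gene was itself 0.03 higher on the log2(TPM + 1) scale in each edited genotype. Spred2, the close relative of Spred1, had log2 fold changes of 0.14 ± 0.07 in Zfp352/Zfp353-DKO cells (edgeR adjusted p = 0.201) and 0.10 ± 0.07 in Zfp352-KO cells (0.418).

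Of the phosphatases, Dusp6, which acts on ERK in the cytoplasm, had 31.6, 33.2 and 36.1 TPM in the Zfp352/Zfp353-DKO libraries, 35.8, 34.0 and 31.0 TPM in those of Zfp352-KO and 35.3, 35.2 and 38.1 TPM in the Parental libraries. These ranges overlapped in TPM, whereas in CPM the edited libraries, 47.6 to 51.8 in Zfp352/Zfp353-DKO and 46.8 to 51.6 in Zfp352-KO, all lay below the Parental ones, 53.8 to 56.5. Its log2 fold changes were -0.15 ± 0.06 (edgeR adjusted p = 0.105) and -0.16 ± 0.06 (0.0937) against Parental cells. Dusp5, a nuclear ERK phosphatase, had 11.5, 11.99 and 10.9 TPM in the Zfp352/Zfp353-DKO libraries, 10.8, 10.8 and 11.1 TPM in those of Zfp352-KO and 12.2, 13.2 and 12.3 TPM in the Parental libraries. No edited library reached a Parental one. Its log2 fold changes were -0.18 ± 0.11 in Zfp352/Zfp353-DKO cells (edgeR adjusted p = 0.329) and -0.25 ± 0.11 in Zfp352-KO cells (0.168), with the widest intervals of the 10 members. Dusp4, a nuclear phosphatase of ERK and other MAP kinases, spread from 41.2 to 52.7 TPM among Parental libraries and only from 44.7 to 45.4 TPM in Zfp352/Zfp353-DKO and from 46.5 to 47.6 TPM in Zfp352-KO libraries. Its log2 fold changes were -0.09 ± 0.06 (edgeR adjusted p = 0.419) in Zfp352/Zfp353-DKO cells and -0.03 ± 0.06 (0.841) in Zfp352-KO cells.

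Etv4, the other PEA3-group gene among the members, had 41.7, 38.3 and 40.7 TPM in the Zfp352/Zfp353-DKO libraries, 39.4, 44.0 and 39.1 TPM in those of Zfp352-KO and 40.9, 41.5 and 46.9 TPM in the Parental libraries. The genotypes overlapped, and the log2 fold changes were -0.14 ± 0.06 (edgeR adjusted p = 0.186) and -0.12 ± 0.06 (0.261). The 95% intervals of Etv4, -0.27 to -0.01 in Zfp352/Zfp353-DKO and -0.25 to 0.01 in Zfp352-KO cells, include the sizes measured for Etv5.

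By TPM alone, 5 of 10 members did not overlap between Zfp352/Zfp353-DKO and Parental libraries, namely Spry2, Spry4 and Spred1 above and Dusp5 and Etv5 below, where 15.8% of all tested genes lay above, 11% below and 26.7% either way. The same 5 did not overlap between Zfp352-KO and Parental libraries, where the shares over all tested genes were 16.2% above, 9.98% below and 26.2% either way. The members without overlap depended on the scale, a check added after seeing the data. In CPM, Spry4 and Spred1 lay above and Dusp5, Dusp6 and Etv5 below in both edited genotypes, with Spry1 also below in Zfp352-KO cells, and Spry2 overlapped. That made 5 of 10 members in Zfp352/Zfp353-DKO and 6 of 10 in Zfp352-KO cells, beside 28.1% and 27.4% of all tested genes.

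The third comparison set Zfp352/Zfp353-DKO against Zfp352-KO cells. Besides the deletion of Zfp353, the 2 may differ by clone. In TPM, Zfp352 was also lower in every Zfp352/Zfp353-DKO library (log2 fold change -1.99 ± 0.62, edgeR adjusted p = 0.447). These cannot be told apart here. Between Zfp352/Zfp353-DKO and Zfp352-KO cells 0 of 10 members passed in edgeR, in DESeq2 or in limma, against 0.105% of all tested genes called in edgeR (0.014% higher and 0.0909% lower). The log2 fold changes of the members ran from -0.06 for Dusp4 to 0.12 for Spry1. Spry4 was the only member at an unadjusted edgeR p under 0.05, with a log2 fold change of 0.10 ± 0.04 (95% interval 0.01 to 0.19, adjusted p = 0.712). In TPM, Spry4 was higher and Dusp4 lower in every Zfp352/Zfp353-DKO library than in every Zfp352-KO library, and of all tested genes 5.15% were higher without overlap, 5.52% lower and 10.7% either. A missed threshold does not show equal levels. Over the 10 members, the 95% intervals reach from -0.19, the lower end for Dusp4, to 0.31, the upper end for Dusp5. Apart from Spry4, the narrowest were those of Etv5, -0.10 to 0.08, and Spry2, -0.09 to 0.10.

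**Figure D3:**
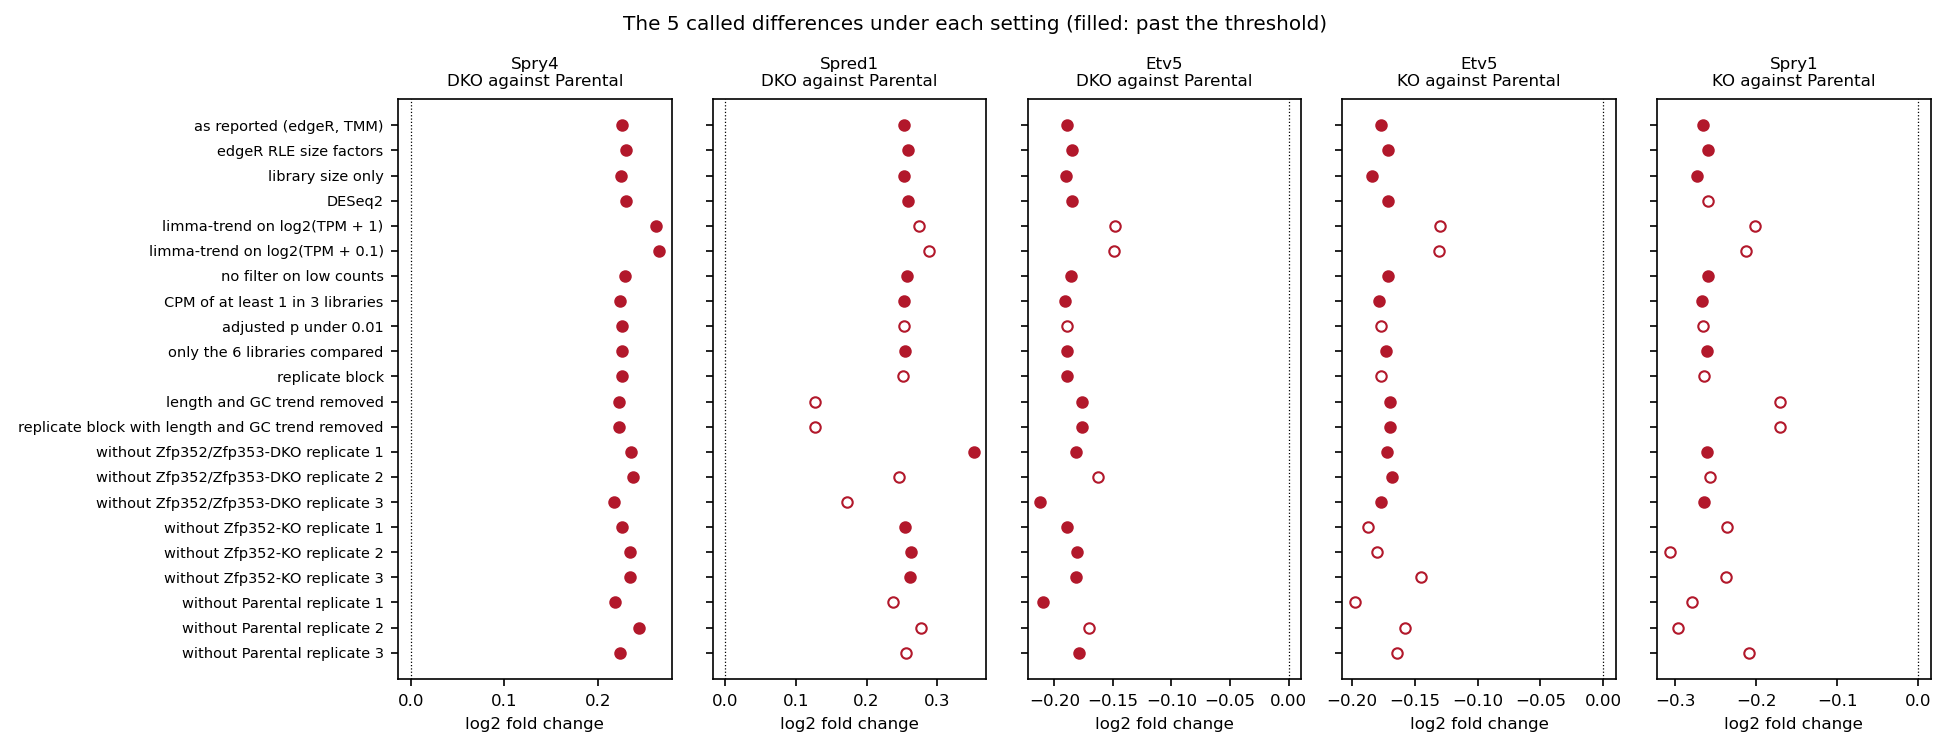
Log2 fold changes of the 5 called differences from Parental cells (Spry4, Spred1 and Etv5 in Zfp352/Zfp353-DKO, Etv5 and Spry1 in Zfp352-KO cells) in the reported fit, the 12 other settings and the 9 fits without 1 library. Filled points passed the threshold of their setting; every point kept its sign, and all points of Spry4 passed.

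The genes whose log2 CPM followed the called members most closely over the 9 libraries, by Pearson's r, were Pecam1 (0.976) and Ints7 (0.973) for Spry4, Zfp600 (0.987) and Polr3f (0.987) for Spred1, Pcdh1 (0.965) and Letm2 (0.964) for Etv5, and Kdf1 (0.955) and Pelo (0.941) for Spry1. These are the highest values out of 14300 genes over libraries that fall into 3 genotypes, and are given as a description.

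Among 19 tested genes of the same families or with other known feedback roles, 3 rose and 5 fell in Zfp352/Zfp353-DKO cells, and 3 rose and 4 fell in Zfp352-KO cells, relative to Parental cells. Their median log2 fold changes were -0.18 and -0.11. Of all tested genes, 3.65% were called higher and 4.82% lower in Zfp352/Zfp353-DKO cells, and 3.43% and 3.64% in Zfp352-KO cells. Dusp9, a cytoplasmic ERK phosphatase encoded on the X chromosome, had 51.1, 50.1 and 56.3 TPM in the Zfp352/Zfp353-DKO libraries, 55.2, 54.6 and 56.5 TPM in those of Zfp352-KO and 69.4, 62.7 and 68.9 TPM in the Parental libraries. It fell by 0.39 (SE 0.05, edgeR adjusted p = 6.3e-05) in Zfp352/Zfp353-DKO and by 0.32 (SE 0.05, 0.00114) in Zfp352-KO cells on the log2 scale, without overlap, and passed in every other setting and omission tried. That fall exceeded the one of any of the 3 phosphatases among the members in the point estimates, a difference that was not tested.

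Dusp1, a phosphatase of stress-activated kinases and ERK, fell by 0.37 in Zfp352/Zfp353-DKO (SE 0.07, edgeR adjusted p = 0.0038) and by 0.36 in Zfp352-KO cells (SE 0.07, 0.00745). Phlda1 fell by 0.69 in Zfp352/Zfp353-DKO (SE 0.14, 0.0038) and by 0.57 in Zfp352-KO cells (SE 0.14, 0.0195). In Zfp352-KO cells the call of Dusp1 was lost without Zfp352-KO library 2 or Parental library 1 (edgeR adjusted p up to 0.0788), and that of Phlda1 without Zfp352-KO library 1 or Parental library 1 or 2 (up to 0.105). Dusp14 also fell in both genotypes, and Errfi1, an inhibitor of the EGF receptor, fell in Zfp352/Zfp353-DKO cells. The genes that rose in both were Etv1, the PEA3-group gene outside the 10 members (0.37 in Zfp352/Zfp353-DKO and 0.39 in Zfp352-KO), Il17rd, which encodes the FGF receptor inhibitor SEF (0.18 in each), and Nf1, which encodes the RAS inactivator neurofibromin that SPRED1 recruits (0.32 and 0.28). Etv1 averaged 11.4 ± 2.28 TPM in Zfp352/Zfp353-DKO, 11.7 ± 2.20 in Zfp352-KO and 8.53 ± 0.387 in Parental cells, so that the PEA3-group genes Etv1 and Etv5 differed from Parental cells in opposite directions. The calls of these 3 genes and of Dusp14 and Errfi1 were each lost when one or another library was left out (edgeR adjusted p up to 0.239), and the 5 were chosen after their values were seen. Over the 12 other settings, log2 fold changes in Zfp352-KO cells ran from 0.08 to 0.32 for Nf1 and from 0.09 to 0.23 for Il17rd. Nf1, Il17rd and Etv1 passed in 5, 5 and 7 of these settings in Zfp352-KO and in 9, 6 and 6 in Zfp352/Zfp353-DKO cells. Of the 9 fits without 1 library, they passed in 4 each in Zfp352-KO and in 5, 4 and 3 in Zfp352/Zfp353-DKO cells.

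Upstream of the regulators, Fgf4, the main FGF ligand of mouse embryonic stem cells, was the only 1 of 10 tested FGF ligands called in either comparison. It had 89.2, 85.8 and 91.5 TPM in the Zfp352/Zfp353-DKO libraries, 89.9, 85.2 and 84.1 TPM in those of Zfp352-KO and 75.0, 70.9 and 79.3 TPM in the Parental libraries. Every edited library lay above every Parental one. Its log2 fold change was 0.20 ± 0.05 in Zfp352/Zfp353-DKO cells (edgeR adjusted p = 0.0085) and 0.16 ± 0.05 in Zfp352-KO cells (0.0435). The call in Zfp352-KO cells was lost without Zfp352/Zfp353-DKO library 2, Zfp352-KO library 1 or 2 or Parental library 1 or 2 (edgeR adjusted p up to 0.166). That in Zfp352/Zfp353-DKO cells was lost without Parental library 1 (0.0523). Over the 12 other settings, Fgf4 passed in 12 in Zfp352/Zfp353-DKO and in 7 in Zfp352-KO cells. The other 12 of the 22 listed ligands did not pass the filter on low counts. Of all tested genes, 3.65% were called higher in Zfp352/Zfp353-DKO and 3.43% in Zfp352-KO cells.

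Of 19 receptors and adaptors, 0 rose in either genotype, 2 fell in Zfp352/Zfp353-DKO and 1 fell in Zfp352-KO cells. Beside these, 4.82% and 3.64% of all tested genes were called lower. Fgfrl1, a receptor without a kinase domain, fell by 0.30 in both, and Fgfr3, at 0.463 ± 0.0551 TPM in Zfp352/Zfp353-DKO and 0.917 ± 0.269 TPM in Parental cells, fell by 1.03 in Zfp352/Zfp353-DKO cells (SE 0.26, edgeR adjusted p = 0.0183). With 1 of the 9 libraries left out in turn, Fgfrl1 passed in only 2 of 9 fits in each genotype (edgeR adjusted p up to 0.168). Fgfr3 in Zfp352/Zfp353-DKO cells passed in 5 of 9 (up to 0.129). Over the 12 other settings, Fgfrl1 passed in 4 in Zfp352/Zfp353-DKO and 5 in Zfp352-KO cells, and Fgfr3 in 9 in Zfp352/Zfp353-DKO cells. Fgfr1, the main FGF receptor of these cells by level, had 65.3 ± 1.97 TPM in Zfp352/Zfp353-DKO, 65.6 ± 2.63 in Zfp352-KO and 62.9 ± 4.00 in Parental cells, with log2 fold changes of 0.02 against Parental cells in each edited genotype. Of 27 genes of the cascade from RAS to ERK, Rras2 and Rras fell in Zfp352/Zfp353-DKO cells, while Rras and Hras fell and the ERK-activated kinase gene Rps6ka3 rose in Zfp352-KO cells. These calls stood beside 8.47% of all tested genes called in either direction in Zfp352/Zfp353-DKO and 7.06% in Zfp352-KO cells. Log2 fold changes of these calls lay between -0.40 and 0.26, and each was lost without one or another library (edgeR adjusted p up to 0.189). Of the 9 fits without 1 library, Rras2 and Rras passed in 2 each in Zfp352/Zfp353-DKO cells. In Zfp352-KO cells Rras, Hras and Rps6ka3 passed in 5, 4 and 5. Over the 12 other settings, Rps6ka3 in Zfp352-KO cells ran from 0.07 to 0.31 and passed in 7. Rras and Hras passed in 9 and 6 of them in Zfp352-KO cells, and Rras2 and Rras in 5 and 3 in Zfp352/Zfp353-DKO cells.

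Many, though not all, of the genes listed as immediate early genes are switched on quickly by ERK and serum response factor. Among 17 tested genes of this list, 9 fell in Zfp352/Zfp353-DKO and 10 in Zfp352-KO cells and 0 rose, beside 4.82% and 3.64% of all tested genes called lower. Their median log2 fold changes were -0.30 and -0.37. Fos and Egr1 were called in neither genotype, and only Egr1 in Zfp352/Zfp353-DKO cells had an unadjusted edgeR p under 0.05. Cyr61 averaged 11.3 ± 1.24 TPM in Zfp352/Zfp353-DKO, 13.7 ± 0.898 in Zfp352-KO and 22.8 ± 0.705 in Parental cells. It fell by 1.06 on the log2 scale in Zfp352/Zfp353-DKO (SE 0.08, edgeR adjusted p = 6.6e-08) and by 0.78 in Zfp352-KO cells (SE 0.08, 7.4e-06). Ctgf fell by 0.57 and by 0.44, Fosl2 by 1.18 and by 0.79, and Jund by 0.23 and by 0.37, in Zfp352/Zfp353-DKO and in Zfp352-KO cells. Of these, only Jund in Zfp352/Zfp353-DKO cells lost its call when 1 library was left out (library 2 or 3 of Zfp352/Zfp353-DKO, or 1 or 3 of Parental, edgeR adjusted p up to 0.131). Cyr61 and Ctgf are also known targets of YAP and of serum, so they do not report on ERK alone. Of 12 tested fibroblast-type markers, 8 fell in Zfp352/Zfp353-DKO and 7 in Zfp352-KO cells. What lay behind the lower immediate early genes was not tested. Between Zfp352/Zfp353-DKO and Zfp352-KO cells 0 genes of these 5 pathway lists passed in edgeR, and Dusp3, Fosl2, Jund and Cyr61 had an unadjusted p under 0.05.

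**Figure D4:**
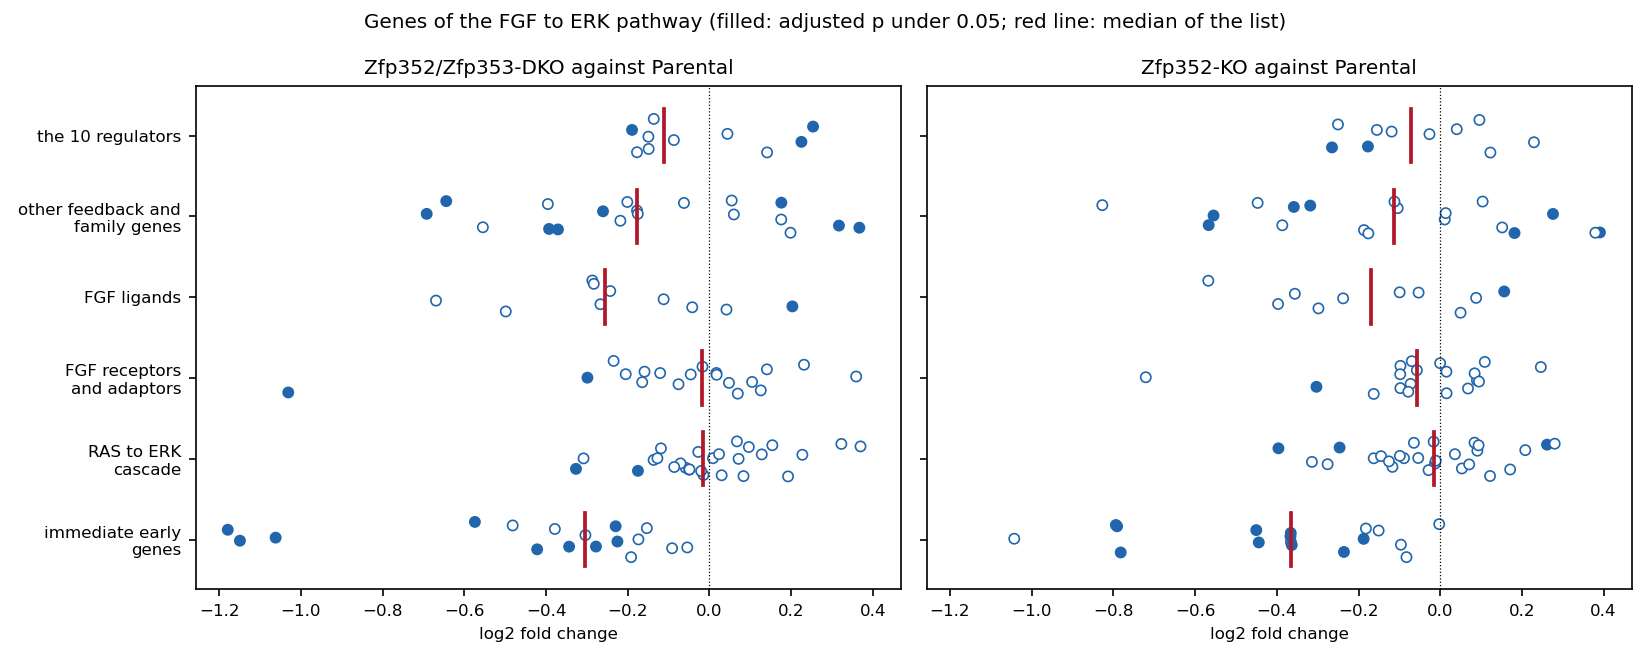
Log2 fold change of every tested gene of the member list and the 5 other pathway lists in Zfp352/Zfp353-DKO against Parental and Zfp352-KO against Parental cells. Each point is a gene, filled where the edgeR adjusted p was under 0.05; the immediate early genes all lie below 0, while the 10 feedback regulators lie on both sides of 0 and within 0.27 of it.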

How the data were processed

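The authors deposited 1 table per library. Per the file headers these held an expected count for each gene, TPM, FPKM, a length and an effective length. Libraries kept mRNA strand information and were sequenced from one end, per the labels' protocols. The submitters' processing notes name mm10 as build and list RSEM 1.3.3, STAR 2.7.8a and Trim Galore 0.6.6. Step order, annotation release and strand setting of the counting: not given in the sources used here. Where counting ignored strand, reads of Spry1 and Dusp5 cannot be told apart from those of antisense genes that GENCODE places over them. The deposited FPKM values were not used, and lengths entered only the length and GC correction.

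Expected counts, 9.27% of which were not whole, were rounded and tested with edgeR 4.0.16 (R 4.3.3, TMM, filterByExpr, quasi-likelihood test, two-sided, Benjamini-Hochberg over 14300 genes), in a single fit of genotype over 9 libraries that left 6 residual degrees of freedom, without block. DESeq2 1.42.0 and limma 3.58.1 were alternatives. Intervals are 95%, with the degrees of freedom of the test. The deposited TPM values show levels. The common coefficient of variation between libraries of a genotype was 4.95%. The fit was tested on simulated data with larger changes than those called among the members and without a length or GC trend. That simulation therefore does not bear on the calls of the members. Counts of same-genotype libraries differed beyond sampling noise, and each counted as 1 replicate. Replicate numbers of the labels were not taken to pair libraries of different genotypes, although a shared culture or day is not excluded.

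Named genes are the 10 members, Zfp352, up to 3 called genes per other list and comparison by adjusted p, and the 2 genes most like each called member. Dusp14, Nf1, Etv1, Il17rd, Errfi1, Fgfr1, Dusp3, Fos, Egr1 and the single cell type markers fall outside this rule and were named after their values were seen. Members and lists were chosen with earlier results of these data known. Promoters came from RefSeq (GRCm38.p6), and GC content, found for 99.6% of tested genes, from GENCODE transcripts. Zfp353 was not analysed here.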

Additional observations from a re-analysis of the deposited data

How the results depend on the processing

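Spry4 in Zfp352/Zfp353-DKO cells kept its call in every setting and omission tried; calls of Etv5, Spred1 and Spry1 did not, as given with each; the replicate block also ended those of Spred1 in Zfp352/Zfp353-DKO cells (edgeR adjusted p = 0.0606) and of Etv5 (0.053) and Spry1 (0.0805) in Zfp352-KO cells. Dusp5 is limited most by depth. Same-numbered libraries correlated at -0.077 to 0.106 and were each other's best match in 8 of 18 cases, so the numbers were not taken to pair libraries, and a replicate block is among the settings below, and the cause of the differences was not tested.

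In Zfp352-KO against Parental cells, genes called higher and lower numbered 122 and 237 by limma on log2(TPM + 1), 124 and 228 on log2(TPM + 0.1), 73 and 184 at adjusted p under 0.01, and 232 and 337 with the replicate block. Those higher numbered 843 with no filter and 759 from only the 6 libraries compared. Members called lower numbered 0 by both limma fits, at 0.01 and with the block, and 1 in DESeq2, with the trend removed and with block and trend. Members called higher numbered 1 in DESeq2, with no filter and from 6 libraries. Without 1 library the counts ran from 50 (Parental 1) to 838 higher (Zfp352/Zfp353-DKO 3) and from 160 to 714 lower, the same libraries at the ends, with 0 to 1 members higher and 0 to 2 lower.

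In Zfp352/Zfp353-DKO against Parental cells they numbered 193 and 385 by limma on log2(TPM + 1), 197 and 373 on log2(TPM + 0.1), and 134 and 333 at 0.01. Those higher numbered 800 with no filter, 333 with the replicate block, 790 with the length and GC trend removed and 801 with block and trend. Members called higher numbered 1 by both limma fits, at 0.01, with block, with trend removed and with both, and members called lower 0 by both limma fits and at 0.01. Without 1 library the counts ran from 123 (Parental 1) to 697 higher (Zfp352/Zfp353-DKO 1) and from 326 (Parental 1) to 726 lower (Zfp352-KO 1), with 1 to 2 members higher and 0 to 1 lower.

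Between Zfp352/Zfp353-DKO and Zfp352-KO cells edgeR as reported gave 2 genes higher and 13 lower. DESeq2 gave 5 and 22, limma 0 and 1 in both fits, no filter 22 and 44, 0.01 gave 0 and 3, 6 libraries 0 and 3, trend removed 10 and 45, and block and trend 8 and 37, and the block gave 8 lower. Without 1 library there were 0 to 8 higher and 3 to 14 lower, and 0 members.

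Signs reversed only for uncalled members near 0. The log2 fold change of Dusp4 in Zfp352-KO against Parental cells was 0.0229 and 0.0235 by limma, 0.0603 with the trend removed, 0.0617 with block and trend, and -0.0852 to 0.0517 without 1 library. Between the edited genotypes Spry2 was at -0.0019 by both limma fits. Without 1 library, Spry2 ran from -0.0050 to 0.0164, Spred1 from -0.0577 to 0.118, Spred2 from -0.0315 to 0.115, Dusp6 from -0.0348 to 0.0359, Etv4 from -0.0612 to 0.0418 and Etv5 from -0.0361 to 0.0056.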
